A study of Rattus norvegicus with 8 samples.

Results

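The 8 genes described here are immediate early response genes of the rat heart: Fos (ENSRNOG00000008015), Jun (ENSRNOG00000026293), Junb (ENSRNOG00000042838), Egr1 (ENSRNOG00000019422), Atf3 (ENSRNOG00000003745), Nr4a1 (ENSRNOG00000007607), Dusp1 (ENSRNOG00000003977) and Myc (ENSRNOG00000004500). They were chosen by name, as a fixed list of 8 Ensembl gene IDs, from the 21549 genes in the count tables, and all 8 were present and passed the filter on low counts. RNA was sequenced from heart tissue of Sprague Dawley rats, an outbred laboratory strain, at 3 months of age. One group of 4 rats was kept in normoxia (the libraries titled Control) and another group of 4 in chronic hypoxia, with 1 library taken as 1 animal, since the extraction protocol speaks of 4 rats of each kind. No other treatment or allele is named for either group, and the sources used here give neither the degree nor the duration of the hypoxia, nor the animals' sex or the chamber sampled.

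Immediate early genes are switched on within minutes of a stimulus from transcription factors that already lie in the cell, so their induction needs no new protein synthesis. Their transcripts are short-lived, and a tissue's level therefore follows recent signalling through MAP kinases, calcium and cAMP. In the heart they are known to respond to stretch, adrenergic drive and ischaemia. Most encode transcription factors: Fos pairs with Jun-family proteins to form AP-1, Egr1 is a zinc finger factor, Atf3 belongs to the CREB/ATF family, Nr4a1 is an orphan nuclear receptor and Myc is a growth-related helix-loop-helix factor. Dusp1 differs from these, as it is a phosphatase that switches MAP kinases off.

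The deposited tables hold Ensembl IDs without names, and the pairing of the 8 IDs with symbols is part of the list itself. A pair of lengths bears on it: Jun and Junb have no introns, and their gene models measured 3089 bp and 1783 bp in these files, against RefSeq gene spans of 3094 bp and 1785 bp. IDs for other immediate early genes (Fosb, Egr2, Nr4a3, Ier2 and the like) and for markers of heart muscle, vessel, blood and immune cells could not be paired with names here. Those genes were not analysed here, and the labelled tissue was not checked against its markers. In bulk tissue, a change in the number of cells of a type and a change in RNA per cell cannot be told apart.

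Promoter sequences are shown for the members that the RefSeq promoter table (rat build GRCr8) holds. Their start regions can be read for the letters through which immediate early genes are classically controlled. Whether such letters bear on the changes described below was not tested. The table matched 4 of the 8 members, Junb, Egr1, Nr4a1 and Dusp1, and did not match Fos, Jun, Atf3 and Myc. Each line gives 250 bases before and 50 bases from the start site, 5′ to 3′ on the plus strand. Capitals mark the CRE core TGACG, the letters shared by cAMP response elements, on either strand (CGTCA when read from the other strand), and the CArG box, the binding sequence of serum response factor. The intervals are chr19:40080876-40081175 for Junb, chr18:26736828-26737127 for Egr1, chr7:134259888-134260187 for Nr4a1 and chr10:17184603-17184902 for Dusp1.
Junb: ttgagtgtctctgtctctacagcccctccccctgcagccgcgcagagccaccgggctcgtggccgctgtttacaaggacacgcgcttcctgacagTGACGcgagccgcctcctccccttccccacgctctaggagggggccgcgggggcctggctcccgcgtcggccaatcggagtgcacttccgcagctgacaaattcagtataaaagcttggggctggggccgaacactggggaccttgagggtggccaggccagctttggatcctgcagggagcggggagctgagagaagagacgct
Egr1: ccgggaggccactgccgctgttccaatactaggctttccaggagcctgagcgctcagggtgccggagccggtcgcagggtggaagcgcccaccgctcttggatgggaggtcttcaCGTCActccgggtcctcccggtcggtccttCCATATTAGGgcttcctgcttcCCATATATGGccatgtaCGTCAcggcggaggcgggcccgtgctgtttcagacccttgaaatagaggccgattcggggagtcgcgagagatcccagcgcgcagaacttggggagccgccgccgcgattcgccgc
Nr4a1: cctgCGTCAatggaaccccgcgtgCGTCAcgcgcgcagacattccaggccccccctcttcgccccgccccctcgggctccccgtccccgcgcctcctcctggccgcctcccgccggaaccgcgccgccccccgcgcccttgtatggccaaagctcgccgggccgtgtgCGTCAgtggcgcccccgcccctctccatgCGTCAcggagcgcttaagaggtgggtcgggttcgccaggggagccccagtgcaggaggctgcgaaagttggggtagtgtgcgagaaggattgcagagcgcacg
Dusp1: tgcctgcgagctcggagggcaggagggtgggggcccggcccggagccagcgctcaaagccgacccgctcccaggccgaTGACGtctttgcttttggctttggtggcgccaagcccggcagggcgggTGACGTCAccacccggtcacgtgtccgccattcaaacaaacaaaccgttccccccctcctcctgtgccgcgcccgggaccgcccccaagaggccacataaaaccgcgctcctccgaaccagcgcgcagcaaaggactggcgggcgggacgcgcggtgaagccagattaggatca

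All 4 windows held the CRE core TGACG, which was added to the motif list after the sequences had been seen and occurs in 21.2% of the 33469 promoter windows of the same length. Nr4a1 had 4 copies, with first bases at −246, −226, −82 and −53 from the start site. Dusp1 had 3, of which an overlapping pair at −124 and −121 formed the full palindrome TGACGTCA, present in 1.83% of all windows. Egr1 had 2 copies of the core. It alone among the 4 held exact CArG boxes, at −105 to −96 and −83 to −74, a motif present in 1.64% of all windows. CArG-like sequences with a mismatch were not counted. Junb had 1 copy of the core, at −155. The AP-1 site TGACTCA, in 4.63% of all windows, was found in 0 of the 4. The E-box CACGTG, in 6.42% of windows, was found once, in Dusp1 at −107 to −102. ACGTG, a form of the core of the hypoxia response element found in 19.2% of windows, lay on both strands within that E-box. It also lay once in Egr1 at −137 to −133, where it overlaps a CRE core. Other forms of this core, such as GCGTG, were not counted in any window. Such matches describe letters only and are not evidence of binding. The windows of Junb, Egr1, Nr4a1 and Dusp1 were 65.3%, 64.7%, 72.3% and 68% G or C. The median over all windows was 51.7%, and the shares of all windows given above are not matched for this.

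Expression was compared between chronic hypoxia and normoxia to ask how sustained low oxygen changes cardiac transcripts. Library totals ran from 26229304 to 32160710 counts. The values below are CPM, the usual depth-scaled rate of counts, with library sizes adjusted by TMM, a scaling that sets aside extreme genes, and each fold change and adjusted p comes from edgeR's quasi-likelihood test with Benjamini-Hochberg adjustment over all 14214 genes tested. An adjusted p under 0.05 is described as called.

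Of the 8 genes, 6 were called, all of them higher in hypoxia: Fos, Egr1, Nr4a1, Junb, Dusp1 and Atf3. Jun and Myc were not called. Over all genes tested 33.0% were called and 17.7% were called higher, 2516 genes against 2177 lower. That balance depended on scaling: with library totals alone 1426 genes (10.03%) were higher and 3870 lower, and 5 members, all but Atf3 of the 6, were still called higher. Called and at least 2-fold higher were 5 of the 8 members, against 3.76% of all genes. The members' median log2 fold change was 1.49, and that of all genes tested was 0.01. All 4 hypoxia values lay above all 4 normoxia values in 5 members (Fos, Egr1, Nr4a1, Junb and Dusp1), as they did in 17.3% of all genes.

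**Figure D1:**
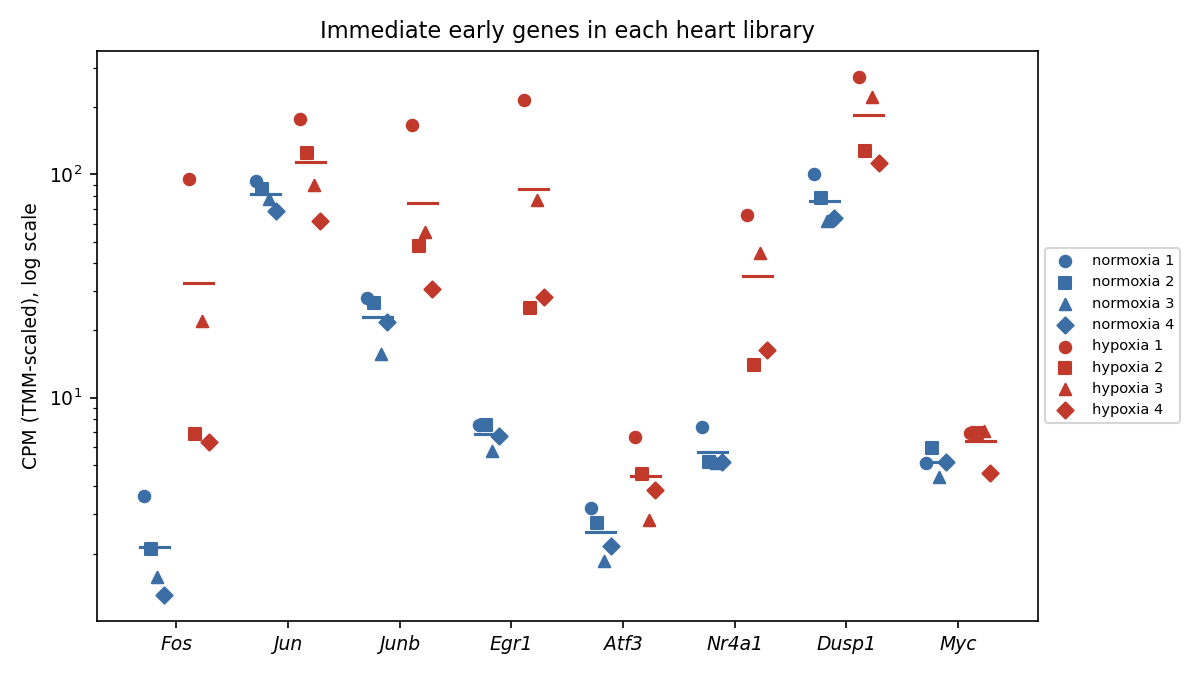
CPM of each gene in each library on a log axis, normoxia in blue and hypoxia in red, with 1 marker shape per library number and a bar at each group mean (n = 4). Fos, Junb, Egr1, Nr4a1 and Dusp1 show no overlap between the groups, and the hypoxia library 1 circle is the top point for all genes but Myc.

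Among the AP-1 subunits Fos, Jun and Junb, Fos showed the largest change. Its normoxia libraries 1 to 4 stood at 3.64, 2.099, 1.57 and 1.31 CPM, and its hypoxia libraries 1 to 4 at 95.8, 6.86, 22.0 and 6.31 CPM. Every hypoxic heart was above every normoxic one, but the highest hypoxic value was 15.2 times the lowest, and library 1 held 73.2% of the group's summed CPM. The group means were 2.15 ± 1.04 and 32.7 ± 42.7 CPM (SD, n = 4 each). Fos rose 15.1-fold, or 3.92 ± 0.89 on the log2 scale (fold change ± SE, edgeR adjusted p = 0.00875), which ranked 15 among all genes tested from the largest rise. Without hypoxia library 1 it was 5.37-fold, or 2.42 ± 0.49 on the log2 scale (fold change ± SE, edgeR adjusted p = 0.00700). In limma-voom, a linear model on log counts, Fos was not called, at a log2 fold change of 3.10 (limma adjusted p = 0.0651).

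Junb, a Jun-family partner of Fos, stood at 28.1, 26.4, 15.7 and 21.9 CPM in normoxia libraries 1 to 4. In hypoxia libraries 1 to 4 it stood at 166, 47.6, 55.0 and 30.8 CPM. The groups did not overlap, although the lowest hypoxic heart, library 4, exceeded the highest normoxic one only narrowly. Junb rose 3.25-fold, or 1.70 ± 0.46 on the log2 scale (fold change ± SE, edgeR adjusted p = 0.0191), from 23.0 ± 5.52 to 74.8 ± 61.5 CPM (SD, n = 4 each). Without hypoxia library 1 the rise was 1.92-fold (log2 0.94, SE 0.23, edgeR adjusted p = 0.0148). The call was lost without normoxia library 3 (edgeR adjusted p = 0.0588) or normoxia library 4 (edgeR adjusted p = 0.0536), at log2 fold changes of 1.56 and 1.68.

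Jun, more abundant than Fos and Junb in normoxia, was not called. Normoxia libraries 1 to 4 had 93.6, 86.0, 77.2 and 68.7 CPM, and hypoxia libraries 1 to 4 had 176, 124, 89.8 and 61.8 CPM. Hypoxia libraries 1 and 2 were above the normoxia range, library 3 was inside it and library 4 was below it. The change was 0.47 ± 0.27 on the log2 scale (fold change ± SE, edgeR adjusted p = 0.197), from 81.4 ± 10.8 to 113 ± 49.4 CPM (SD, n = 4 each). Without hypoxia library 4 it was 0.67 and called (edgeR adjusted p = 0.0355). Without hypoxia library 1 it was 0.17 (edgeR adjusted p = 0.561).

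The FPKM values, which divide counts by gene length and library total, allow Jun and Fos to be compared within a library. In normoxia libraries 1 to 4 the Jun level was 13.2, 21.1, 25.4 and 27.0 times that of Fos. In hypoxia libraries 1 to 4 the ratio was 0.948, 9.33, 2.103 and 5.03. Every hypoxic ratio was below every normoxic one, and in hypoxia library 1 Fos transcripts were slightly more abundant than Jun transcripts. This ratio was chosen after the values were seen, and it was not tested.

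Egr1, which binds GC-rich promoter sites, went from a narrow range in normoxia to a wide one in hypoxia. Its normoxia libraries 1 to 4 were at 7.51, 7.51, 5.74 and 6.71 CPM. Hypoxia libraries 1 to 4 were at 215, 25.3, 76.5 and 28.4 CPM. Even the lowest hypoxic heart was well above the normoxia range, and libraries 1 and 3 were above libraries 2 and 4. Egr1 rose 12.5-fold, or 3.65 ± 0.65 on the log2 scale (fold change ± SE, edgeR adjusted p = 0.00298), which ranked 20 from the largest rise. Without hypoxia library 1 the rise was 6.28-fold (log2 2.65, SE 0.36, edgeR adjusted p = 0.00146). The call held in every alternative tried, with log2 fold changes from 2.51 to 4.12.

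Nr4a1, also known as Nur77, put the 4 hypoxic hearts in the same order as Egr1 did. Its normoxia libraries 1 to 4 were at 7.37, 5.15, 5.09 and 5.17 CPM, so 3 of them were nearly equal and library 1 was above them. In hypoxia libraries 1 to 4 the values were 65.5, 14.0, 44.4 and 16.3 CPM. Again libraries 1 and 3 were high, libraries 2 and 4 lower, and all 4 above normoxia. Nr4a1 rose 6.14-fold, or 2.62 ± 0.47 on the log2 scale (fold change ± SE, edgeR adjusted p = 0.00298), and 4.34-fold without hypoxia library 1 (edgeR adjusted p = 0.00397). It was called in every alternative tried, with log2 fold changes from 1.80 to 2.88.

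Atf3, a stress-induced member of the CREB/ATF family, was the least abundant member per length and showed the weakest of the calls. Normoxia libraries 1 to 4 had 3.19, 2.76, 1.86 and 2.16 CPM, from 57 to 107 counts per library. Hypoxia libraries 1 to 4 had 6.63, 4.54, 2.84 and 3.84 CPM. Hypoxia library 3, which was high for Fos, Egr1 and Nr4a1, was the lowest hypoxic heart for Atf3 and lay inside the normoxia range. Atf3 rose 1.79-fold, or 0.84 ± 0.27 on the log2 scale (fold change ± SE, edgeR adjusted p = 0.0367). The call was lost without hypoxia library 1 (log2 0.58, edgeR adjusted p = 0.0912) or 2 (log2 0.82, edgeR adjusted p = 0.0627). It was also lost without normoxia library 2 (log2 0.89, edgeR adjusted p = 0.0667), 3 (log2 0.72, edgeR adjusted p = 0.1004) or 4 (log2 0.78, edgeR adjusted p = 0.0958), and with scaling by library totals alone (log2 0.67, edgeR adjusted p = 0.0822).

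Dusp1, the phosphatase that ends MAP kinase signalling, was the most abundant member per length in every library. It stood at 100, 78.5, 62.0 and 63.5 CPM in normoxia libraries 1 to 4, and at 274, 128, 222 and 113 CPM in hypoxia libraries 1 to 4. The groups did not overlap, and hypoxia libraries 1 and 3 were again the high ones. Dusp1 rose 2.42-fold, or 1.28 ± 0.28 on the log2 scale (fold change ± SE, edgeR adjusted p = 0.00769), from 76.0 ± 17.7 to 184 ± 77.1 CPM (SD, n = 4 each). Without hypoxia library 1 the rise was 2.02-fold (edgeR adjusted p = 0.0149).

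Myc, which drives growth and ribosome production, was not called. Its normoxia libraries 1 to 4 had 5.10, 5.94, 4.40 and 5.14 CPM. Hypoxia libraries 1 to 3 were nearly equal at 6.94, 6.96 and 7.05 CPM, above the normoxia range, and hypoxia library 4 was within it at 4.59 CPM. The change was 0.31 ± 0.16 on the log2 scale (fold change ± SE, edgeR adjusted p = 0.161). Without hypoxia library 4 it was 0.44 and called (edgeR adjusted p = 0.0335).

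**Figure D2:**
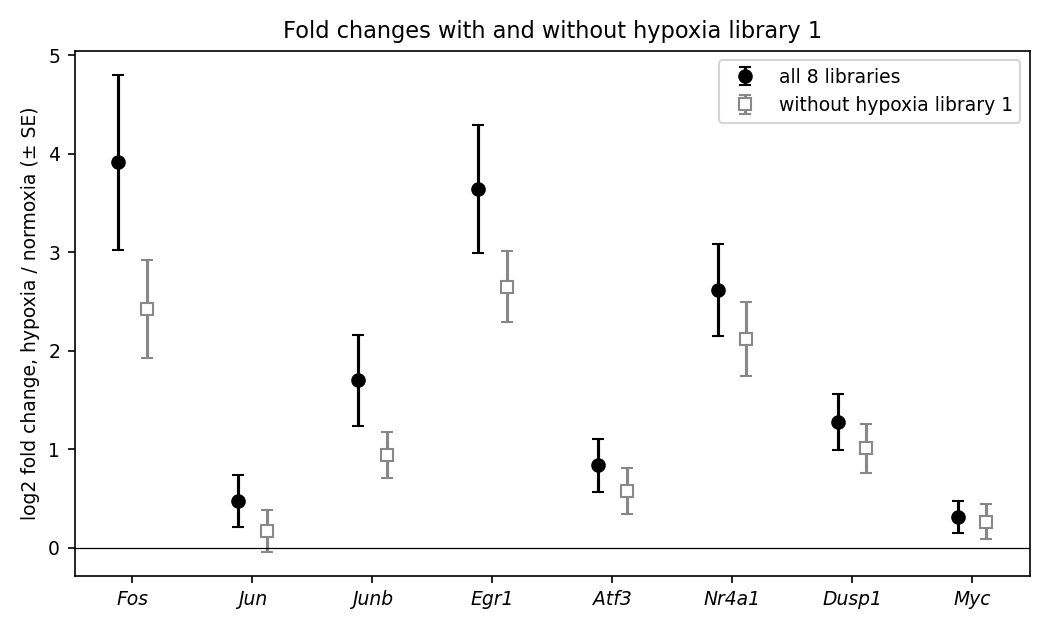
Log2 fold change of hypoxia against normoxia with its SE for each gene, from all 8 libraries (filled circles) and without hypoxia library 1 (open squares). Leaving that library out lowered Fos from 3.92 to 2.42 and Egr1 from 3.65 to 2.65, and all 8 estimates stayed above 0.

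Hypoxia library 1 carried the highest values of most of these genes. It was the highest hypoxia library for 7 of the 8 members, all but Myc, while it was the highest for 27.6% of all genes tested. Its excess over the median of the other 3 hypoxia libraries, in log2 CPM, was 3.79 for Fos, 2.92 for Egr1, 2.00 for Nr4a1, 1.80 for Junb, 1.10 for Dusp1, 0.97 for Jun and 0.78 for Atf3. By Dixon's ratio, the gap from the farthest value to its neighbour over the whole range of the 4 CPM values, this library did not pass the 95% critical value for any member, with ratios of 0.825 for Fos, 0.821 for Junb and 0.729 for Egr1. The median of the log2 excess over all genes was 0.00, and these 7 values lay between percentiles 94.8 and 99.97 of all genes. Without this library 5 of the 8 members were called higher, against 17.1% of the genes then tested, and the members' median log2 fold change was 0.98. The call that was lost was that of Atf3.

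Among the normoxic hearts, too, 1 library was the highest for most members, at a smaller scale. Normoxia library 1 was the highest normoxia library for 7 of the 8 members, again all but Myc, against 24.9% of all genes. Fos varied 2.78-fold between the highest and lowest normoxic heart, Junb 1.79-fold, Atf3 1.72-fold and Dusp1 1.62-fold. At the other end, normoxia library 3 was the lowest of its group for 6 members, against 22.7% of all genes, and hypoxia library 4 for 5, against 22.0%. Over all genes, same-numbered libraries were not correlated across the groups (correlations of −0.0847 to 0.0187). Whether the shared number 1 is more than a name for these genes was not tested.

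**Figure D3:**
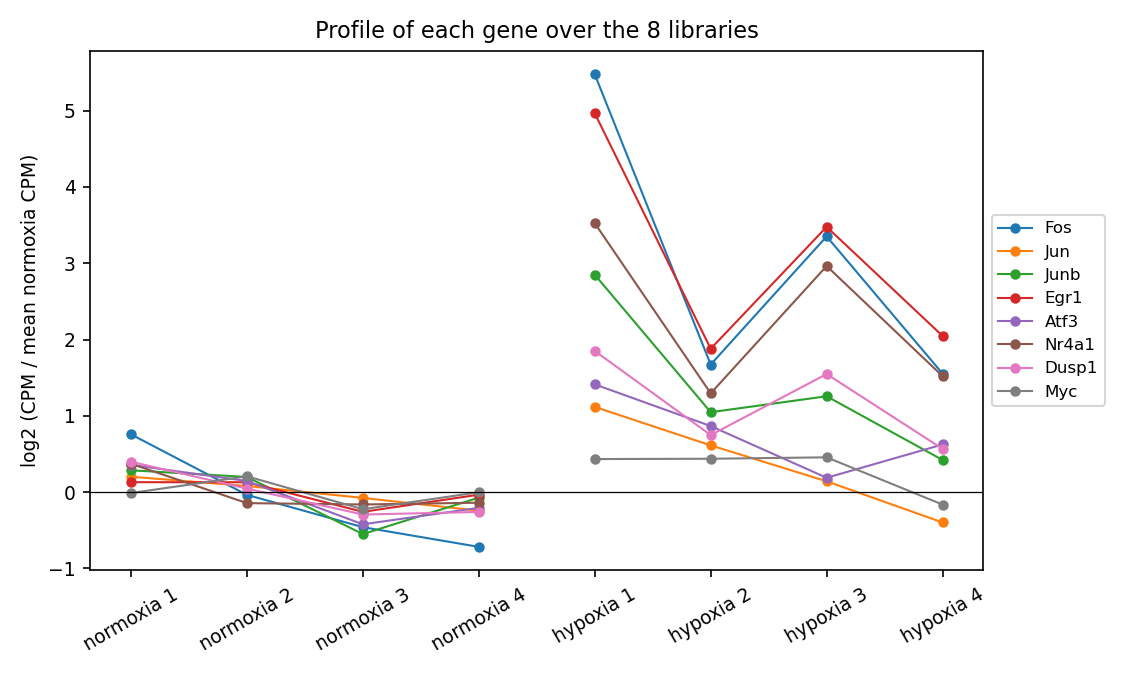
Log2 ratio of each gene's CPM to its mean over the 4 normoxia libraries, by library. Lines join libraries of a group to show which genes share a profile and carry no order of time; Fos, Egr1 and Nr4a1 run close together over the hypoxia libraries, with high points in libraries 1 and 3.

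Likeness of profile was measured as the root mean square difference of log2 CPM over the 8 libraries after centring each gene on its own mean, among genes averaging 1 CPM or more. Of the 12658 genes compared with Fos, the closest was Egr1, with a difference of 0.41, and the next was Nr4a1, at 0.69. The closest to Egr1 was Fos, followed by Nr4a1 at 0.49. For Nr4a1, Egr1 ranked 2 of 12658. Junb had Dusp1 as its closest member, at rank 4 and a difference of 0.39, while Junb ranked 59 for Dusp1. Atf3 ranked 49 in likeness to Junb, at 0.57, closer than Nr4a1, at rank 123 and 0.62. In likeness to Fos, Atf3 ranked 260, Jun 673 and Myc 2049. The ranks depend on the gene taken as reference. Fos ranked 24 for Nr4a1, but 12592 for Atf3, 12601 for Jun and 12619 for Myc, near the end of the 12658 genes. The closest member to Jun was Myc, at rank 328. Jun was the closest member to Atf3, at rank 713, and to Myc, at rank 4542. The measure takes in both the difference between the groups and that between hearts, and all genes share the same 8 libraries.

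All 8 members varied more among the hypoxic hearts than among the normoxic ones, as did 78.7% of all genes. The edgeR fit gives each gene the same dispersion in both groups, so its SEs and adjusted p-values do not take this difference into account. The SD of log2 CPM in hypoxia was 1.83 for Fos, 1.44 for Egr1, 1.09 for Nr4a1 and 1.03 for Junb, against a median of 0.23 over all genes. These 4 values lay at percentiles 99.7, 99.2, 97.9 and 97.6 of all genes. Without hypoxia library 1 the SDs were 1.00 for Fos, 0.88 for Egr1, 0.90 for Nr4a1 and 0.43 for Junb, at percentiles 97.1, 95.8, 96.1 and 81.7, against a median of 0.21. Atf3 was then at 0.34 in both groups, and the other 7 members still had the larger SD in hypoxia, as did 71.8% of all genes. In normoxia Fos, with an SD of 0.63, was at percentile 96.9, whereas Egr1, at 0.18, was at percentile 67.8. The median over all genes in normoxia was 0.13. Myc was closest to the typical gene, with SDs of 0.17 and 0.30.

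**Figure D4:**
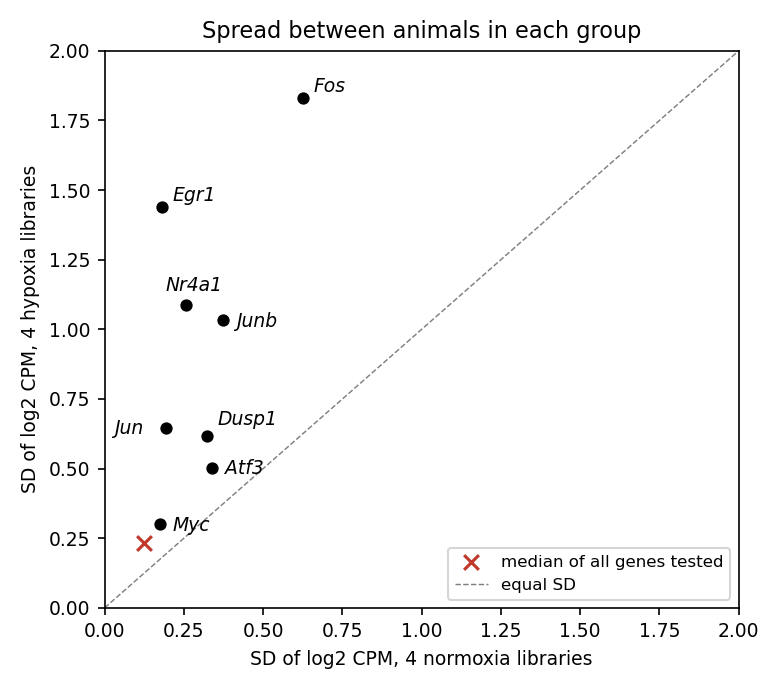
SD of log2 CPM over the 4 hypoxia libraries against that over the 4 normoxia libraries for each gene, with the median of all genes tested as a red cross and a dashed line of equal SD. All 8 genes lie above the line, with Fos at 0.63 and 1.83 and Egr1 at 0.18 and 1.44.

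Levels can be compared between genes in FPKM. In normoxia Dusp1 was highest at 41.8 ± 10.2 FPKM (SD, n = 4), followed by Jun at 28.0 ± 4.19 and Junb at 13.7 ± 3.41, and the ranges of these 3 did not overlap. The other 5 followed at 2.33 ± 0.307 for Egr1, 2.28 ± 0.463 for Nr4a1, 2.03 ± 0.265 for Myc, 1.45 ± 0.714 for Fos and 0.911 ± 0.229 for Atf3, with overlapping ranges between neighbours. In hypoxia the order of means was Dusp1 at 91.0 ± 42.2, Junb at 40.3 ± 34.5, Jun at 34.7 ± 16.0, Egr1 at 26.7 ± 28.1, Fos at 20.1 ± 26.4 and Nr4a1 at 12.7 ± 9.34 FPKM (SD, n = 4). Neighbours in that order overlapped, and the order rested on hypoxia library 1. Without it the means were 27.7 ± 9.20 for Jun, 23.4 ± 7.61 for Junb, 13.2 ± 9.60 for Egr1, 8.93 ± 6.65 for Nr4a1 and 7.06 ± 5.79 FPKM for Fos (SD, n = 3), so that Jun stood above Junb and Nr4a1 above Fos. The medians over all 4 hypoxic hearts had Jun and Junb, at 32.5 and 27.3 FPKM, and Nr4a1 and Fos, at 11.04 and 8.81 FPKM, in that same order. Myc at 2.25 ± 0.494 and Atf3 at 1.45 ± 0.554 FPKM formed a lower pair, and no value of Myc reached the lowest of Nr4a1. Egr1, Fos and Nr4a1, which lay near Myc and Atf3 in normoxia, were thus above the range of Myc in all 4 hypoxic hearts.

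Gene length moved with the groups in these libraries. Averaged over counts, the gene-model length was 2596 to 2628 bp in normoxia and 2220 to 2375 bp in hypoxia. The members' models measured 1589 to 3130 bp, and the median log2 fold change of the 5592 genes tested in that range of lengths was 0.03. With each library's trend on length removed, the same 6 members were called higher, against 14.9% of all genes in that fit, at log2 fold changes of 3.76 for Fos, 3.72 for Egr1, 2.65 for Nr4a1, 1.59 for Junb, 1.20 for Dusp1 and 0.89 for Atf3.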

How the data were processed

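Heart RNA from 4 normoxic and 4 chronically hypoxic rats was extracted with Trizol and, per the labels' protocols, made into libraries with a NEBNext Ultra kit. Deposited by the authors were whole-number read counts per Ensembl gene ID and FPKM values for each library. Per the submitters' processing notes, HISAT2 2.1.0, HTSeq 0.6.0, Bowtie2 2.2.3, bcl2fastq and the rn6 build were used. The sources used here give neither their roles nor the annotation release or strand setting, so reads of overlapping or antisense genes cannot be separated. Count divided by FPKM and library total gave the same whole-number length for a gene (relative tolerance 0.001) in 100% of values above 0.

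Counts were fitted across all genes with edgeR 4.0.16 in R 4.3.3 (filterByExpr with a minimum count of 10, TMM, quasi-likelihood test, group only, Benjamini-Hochberg). SEs come from the test statistic, and log2 CPM used a prior count of 2. DESeq2 1.42.0 and limma 3.58.1 served as alternatives. The scripts were tested on simulated data. The members, lists and tests were chosen with earlier results of these data known. All 8 members are named, with the 2 genes closest to Fos. Promoter windows came from RefSeq. Replicate numbers were not used to pair animals. Left out were 42 other immediate early genes and the cell type markers, for want of IDs.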

Additional observations from a re-analysis of the deposited data

Results flagged for a closer look

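A library's distance from the others of its group was examined in 16 groups of 4 values, 8 genes in each condition, on the CPM scale. In 2 of them the gap from the farthest value to its nearest neighbour took up more of the group's range than 95% of chance samples of 4 would give. Chance marks about 5% of groups. Nr4a1 stood at 7.37 CPM in normoxia library 1, with the other 3 normoxia libraries between 5.09 and 5.17 CPM. Myc stood at 4.59 CPM in hypoxia library 4, with the other 3 hypoxia libraries between 6.94 and 7.05 CPM. Both were marked on the log2 scale as well.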

How the results depend on the processing

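The removal of hypoxia library 1 and normoxia library 1 together, and that of hypoxia library 1 for levels and SDs, were chosen after seeing the data. The number of genes called was 4693 and stayed within 1.5 times of that in all 25 alternatives, from 3315 to 4758 with 1 library left out. The number of members called, 6 of 8, ranged from 4 (without normoxia library 3 or 4) to 8 (without hypoxia library 4) with 1 library left out. It was 2 (Egr1 and Nr4a1) on the log2(FPKM + 1) scale without a filter, where 21.9% of all genes were called and 5.202% called higher. There limma gave adjusted p-values of 0.0686 for Fos, 0.0645 for Dusp1, 0.122 for Junb and 0.185 for Atf3. On that scale with a mean FPKM of at least 1, Junb (limma adjusted p = 0.0589) and Atf3 (limma adjusted p = 0.121) were not called, and 1195 genes were higher and 3704 lower. Jun turned to a log2 fold change of −0.11 (edgeR adjusted p = 0.613) without hypoxia libraries 1 and 2, and was 0.88 (edgeR adjusted p = 0.00216) without libraries 3 and 4; no other member changed direction. Egr1 and Nr4a1 were called in all 25 alternatives, Dusp1 in 24, Fos in 23, Junb in 20 and Atf3 in 13 of the 24 that tested it, since a mean of 5 CPM left it out. Scaling by library totals alone moved the median log2 fold change of all genes to −0.17 and left 5 members called. Over all genes, same-numbered libraries did not pair (correlations of −0.0847 to 0.0187, with 0 of 4 normoxia libraries nearest to their own number). A block for the replicate number gave 3841 genes called, among them the same 6 members. With 4 animals a group and this spread, the SE of a member's log2 fold change was 0.16 to 0.89.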

Other observations

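Other ratios within a library, which do not depend on how libraries are scaled, also separated the hearts. They were picked after the values were seen and were not tested. The FPKM of Egr1 was 1.27, 1.09, 1.12 and 1.12 times that of Myc in normoxia libraries 1 to 4, and 26.6, 3.12, 9.32 and 5.31 times in hypoxia libraries 1 to 4. Egr1 and Myc were thus present at nearly equal levels per length in each normoxic heart and at unequal levels in each hypoxic heart. The FPKM of Junb was 0.519, 0.532, 0.353 and 0.552 times that of Jun in normoxia, and 1.63, 0.662, 1.06 and 0.864 times in hypoxia. Junb exceeded Jun in hypoxia libraries 1 and 3, the libraries in which Fos, Egr1, Nr4a1 and Dusp1 were also highest.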
